A study of Homo sapiens with 6 samples.

Results

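Insulin, its partner amyloid peptide and the enzymes that mature them were followed as 10 genes of 60611 in the count table, taken by gene name: INS, IAPP, PCSK1, PCSK2, PCSK1N, CPE, SCG5, PAM, QPCT and ERO1B. RNA came from the human beta-cell line EndoC-BH5, labelled wild type, in 3 libraries given vehicle and 3 given interferon gamma with interleukin 1 beta, a pair of inflammatory cytokines. Neither the cytokine doses nor the length of exposure is given in the sources used here, and both groups are the same single line, so no donor varies. Whether the replicates came from different cultures is not stated in the labels, and the p-values cover the scatter among these 6 libraries alone, which may be technical. In bulk RNA, fewer cells that express a gene and less of its RNA per cell cannot be told apart.

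Beta cells make insulin as preproinsulin, which enters the endoplasmic reticulum (ER), loses its signal peptide and folds around disulphide bonds that oxidases such as the ERO1B product help to form. In the maturing granule the convertases encoded by PCSK1 and PCSK2 cut proinsulin after pairs of basic residues, the carboxypeptidase encoded by CPE removes those residues, and proIAPP is cut by the same enzymes. The product of SCG5 is a chaperone of the PCSK2 convertase, the product of PCSK1N inhibits the PCSK1 convertase, PAM encodes the enzyme that amidates peptide ends, and QPCT encodes a glutaminyl cyclase that closes the N-terminal residue of some peptides.

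Pairs of basic codons can be read in the coding sequences of both hormones, shown because the convertases and the carboxypeptidase act on their products. Which of these pairs are cut was not tested. The sequences run 5′ to 3′ on the coding strand, from GENCODE 29 on GRCh38, and capitals mark adjacent codons that both encode a basic residue. INS lies on the minus strand (coding part chr11:2159852-2160971, introns left out), shown from codon 21 to the stop codon, and IAPP on the plus strand (chr12:21373352-21378426), shown whole.
INS: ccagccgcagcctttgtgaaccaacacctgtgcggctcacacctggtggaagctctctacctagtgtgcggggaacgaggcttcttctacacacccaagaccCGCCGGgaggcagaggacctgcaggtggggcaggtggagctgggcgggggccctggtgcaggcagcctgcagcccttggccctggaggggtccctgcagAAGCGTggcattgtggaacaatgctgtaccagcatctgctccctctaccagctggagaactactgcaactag
IAPP: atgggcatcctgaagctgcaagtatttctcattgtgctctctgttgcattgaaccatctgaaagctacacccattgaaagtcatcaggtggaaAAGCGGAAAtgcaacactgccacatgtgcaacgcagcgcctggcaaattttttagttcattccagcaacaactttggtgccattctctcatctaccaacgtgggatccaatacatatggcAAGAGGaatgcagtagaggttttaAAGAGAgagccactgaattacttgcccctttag
INS held pairs of basic codons at codons 55 and 56 and at codons 88 and 89, counted from the start codon as 1. IAPP held a run of basic codons from 32 to 34 and pairs at 72 and 73 and at 80 and 81. The codon before the IAPP pair at 72 encodes glycine, the residue that the amidating enzyme converts.

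The libraries held total counts of 5871481 to 16175364, the shallowest being vehicle replicate 1. The label of beta cell was checked against 12 beta-cell markers, all of which passed the count filter, and MAFA was the lowest at 5.16 ± 1.03 CPM in vehicle (SD, n = 3). Markers of other islet cells were present, among them TTR at 1884 ± 78.4, SST at 555 ± 34.5 and GCG at 44.5 ± 1.46 CPM in vehicle. Of 15 exocrine and duct markers 4 were tested, with a summed level of 160 to 180 CPM in vehicle and 143 to 154 CPM in cytokine libraries, nearly all of it KRT19, which fell, while MUC1 rose. Of 14 stromal, endothelial and immune markers 3 were tested, and their sum was 11.6 to 13.3 CPM in vehicle and 36.1 to 38.8 CPM in cytokine libraries, where PDGFRB and CD68 rose and the third did not pass. PTPRC, PECAM1 and COL1A1 stayed under 1 CPM in both groups. Of the 12 beta-cell markers 10 fell with cytokines, among them INS and SLC30A8, and IAPP and NKX6-1 rose, with a median log2 change of -0.46. Among all 17847 tested genes 28.8% fell and 28.3% rose. Of 10 tested markers of other islet cells GC and IRX2 rose, GCG and LOXL4 fell and 6 did not pass, and GC, an alpha-cell marker, went from 148 ± 4.33 to 625 ± 9.07 CPM. The part of these markers in the results below was not tested.

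Of the 10 genes, 6 rose with cytokines, 3 fell and PCSK1N did not pass the test, against 28.3% of 17847 tested genes that rose and 28.8% that fell (57.1% in either direction). IAPP rose the most, 2.06-fold, followed by PCSK1 at 1.67-fold and QPCT at 1.51-fold, while ERO1B fell 1.63-fold and PCSK2 1.48-fold. The 2 convertases therefore moved in opposite directions, and INS itself differed by only 1.10-fold. Their median log2 change was 0.30, beside -0.019 over all tested genes. Levels are CPM, counts per 1000000 counts after TMM scaling, which corrects library size and composition, and tests are edgeR's quasi-likelihood test with Benjamini-Hochberg adjustment over all tested genes at 0.05. In 9 of the 10 genes every library of one group lay above every library of the other, as in 61.1% of tested genes.

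**Figure D1:**
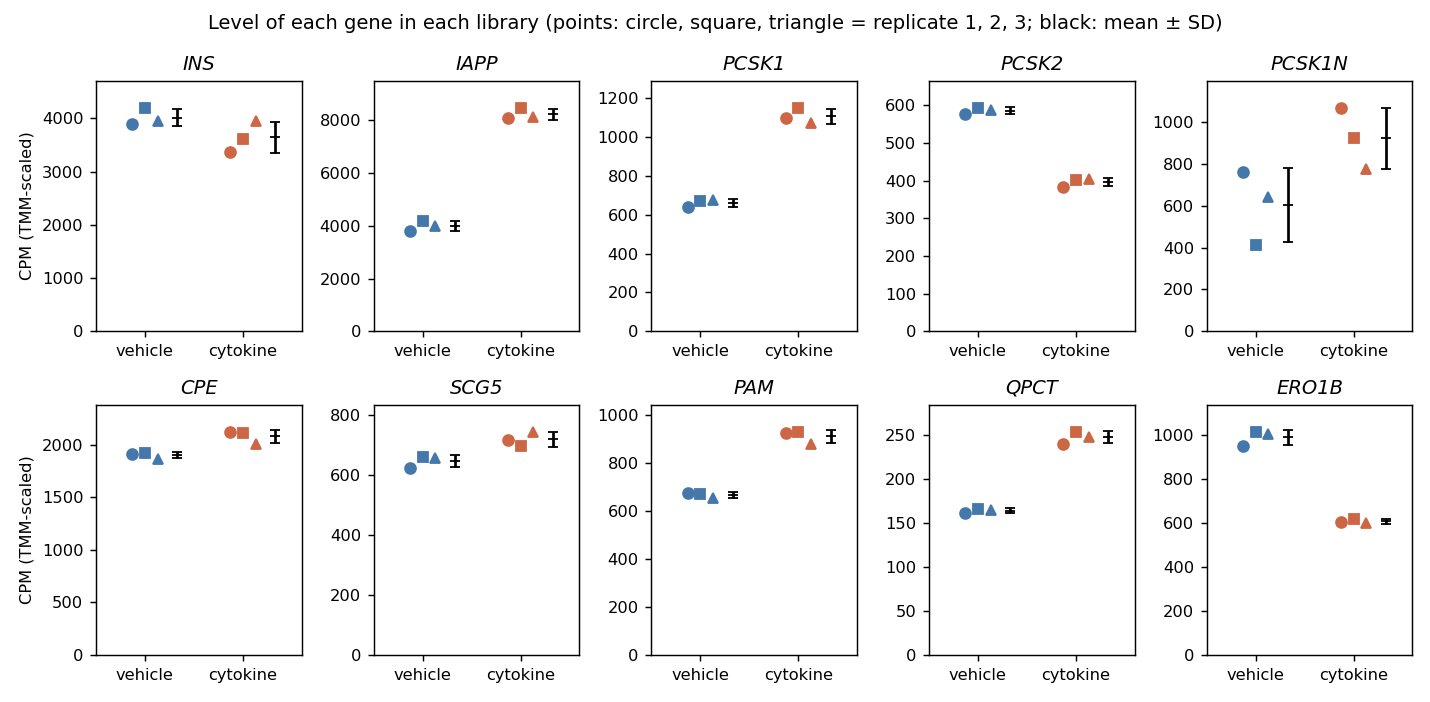
CPM after TMM scaling (linear axes from 0) of each of the 10 genes in each library; symbols give the replicate number, colours the group, and black bars the mean ± SD of 3 libraries. IAPP, PCSK1, PAM and QPCT stand higher and PCSK2 and ERO1B lower in every cytokine library, INS overlaps between groups, and PCSK1N spreads widely within each group.

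INS had 3893, 4198 and 3946 CPM in vehicle replicates 1, 2 and 3 and 3371, 3605 and 3947 CPM in cytokine replicates 1, 2 and 3. The groups overlapped, because cytokine replicate 3 lay above vehicle replicates 1 and 3, while cytokine replicates 1 and 2 were the lowest of all. The log2 change was -0.14 with a standard error (SE) of 0.0446 and a 95% interval from -0.23 to -0.048 (edgeR, adjusted p = 0.0092). The call was lost without vehicle replicate 2 (log2 change -0.095), without cytokine replicate 1 (-0.076) and with DESeq2 (-0.12), with adjusted p-values between 3.4e-07 and 0.235 over 14 alternatives.

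The INS row had a near-equal twin. INS (chr11:2159779-2161341) lies almost wholly within INS-IGF2 (chr11:2132538-2161209), a read-through gene on the same strand, and the INS-IGF2 count was 0.979 to 0.994 times the INS count in every library. Vehicle replicate 1, for example, had a count of 24499 for INS and 24220 for INS-IGF2. How shared reads were counted is not given in the sources used here: if they were divided, the INS row is too low, and if they entered both rows, the sum is too high. The level of insulin mRNA is thus uncertain up to the difference between the row and the sum, while the change between groups was nearly the same from either. Counted together they had 7741, 8306 and 7833 CPM in vehicle and 6722, 7177 and 7845 CPM in cytokine libraries, which is -0.14 on the log2 scale (SE 0.0432, adjusted p = 0.0094 in edgeR). The groups again overlapped through cytokine replicate 3. The table held another row named INS-IGF2, which GENCODE 29 places at IGF2 outside INS, and it was not added.

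IAPP, on chromosome 12 at 21354959 to 21379978, had 3807, 4192 and 3995 CPM in vehicle and 8093, 8477 and 8145 CPM in cytokine libraries. All cytokine libraries lay far above all vehicle libraries, and the spread within a group was small beside the difference, with a log2 change of 1.04 and SE 0.0376 (edgeR, adjusted p = 3.4e-20). SLCO1A2 spans IAPP on the opposite strand and had counts of only 2 to 18.7 where IAPP had 23962 to 121577. The IAPP row thus had no close twin of the kind that the INS row had.

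PCSK1, on chromosome 5 at 96390415 to 96434143, had 638, 673 and 674 CPM in vehicle and 1098, 1151 and 1075 CPM in cytokine libraries. PCSK1 rose by 0.74 on the log2 scale (SE 0.0393, adjusted p = 4.8e-16 in edgeR). PCSK2, on chromosome 20 at 17226107 to 17484578, had 575, 593 and 588 CPM in vehicle and 383, 401 and 404 CPM in cytokine libraries. PCSK2 fell by 0.56 on the log2 scale with SE 0.0391 (edgeR, adjusted p = 2.9e-13). For both convertases the libraries of a group stood close together and the groups were well apart.

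The genes for the partner proteins of the convertases were SCG5 and PCSK1N. SCG5 (chr15:32641676-32697098), the chaperone gene of the PCSK2 convertase, had 622, 659 and 655 CPM in vehicle and 715, 696 and 744 CPM in cytokine libraries. It rose slightly, with a log2 change of 0.15 and SE 0.0396 (edgeR, adjusted p = 0.0015), which became -0.049 under library size scaling without the composition term (edgeR, adjusted p = 0.266).

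PCSK1N (chrX:48831094-48835633), which encodes the inhibitor proSAAS, had 762, 411 and 641 CPM in vehicle and 1069, 925 and 774 CPM in cytokine libraries. The cytokine libraries were all higher, yet the log2 change of 0.62 had an SE of 0.280 and a 95% interval from -0.14 to 1.38, so it did not pass (edgeR, adjusted p = 0.135). Its coefficient of variation among vehicle libraries was 29.5%, and only 0.22% of the 5006 tested genes with at least 50 CPM varied more. Vehicle replicate 2 was at least 1.5-fold below both other vehicle libraries in 3 of those 5006 genes, PCSK1N among them, and without it the log2 change was 0.41 (edgeR, adjusted p = 0.169). In the authors' deposited table PCSK1N had a log2 change of 0.52 with an FDR of 7.4e-22, so this gene was called there and not here.

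CPE (chr4:165361194-165498320), the carboxypeptidase gene, had 1912, 1923 and 1863 CPM in vehicle and 2124, 2108 and 2008 CPM in cytokine libraries. The groups were apart by a small margin, with a log2 change of 0.13 and SE 0.0363 (edgeR, adjusted p = 0.0029) that became -0.071 once the composition term was dropped (edgeR, adjusted p = 0.0677). PAM (chr5:102753981-103031105) had 674, 670 and 653 CPM in vehicle and 923, 930 and 879 CPM in cytokine libraries. PAM rose 1.37-fold, with a log2 change of 0.45 and SE 0.0382 (edgeR, adjusted p = 2.2e-11). QPCT (chr2:37342827-37373322), the lowest of the 10 in counts, had 161, 166 and 164 CPM in vehicle and 240, 254 and 248 CPM in cytokine libraries. Its log2 change of 0.59 had an SE of 0.0426 (edgeR, adjusted p = 6.8e-13), with no overlap of libraries.

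ERO1B (chr1:236215555-236281985) encodes an ER oxidase that is enriched in the pancreas and passes oxidising power to protein disulphide isomerases. It had 951, 1017 and 1004 CPM in vehicle and 605, 620 and 598 CPM in cytokine libraries. ERO1B fell by 0.71 on the log2 scale with SE 0.0387 (edgeR, adjusted p = 1.1e-15), and its cytokine libraries were all far below the vehicle ones. GPR137B overlaps the end of ERO1B on the opposite strand with counts of 107 to 330, against 5985 to 17161 for ERO1B.

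Scaling by library size alone moved every change downwards by a like amount, which turned the direction of the smallest rises, those of CPE and SCG5. Without the composition term, library size scaling shifted the median change of all tested genes from -0.019 to -0.22 on the log2 scale, and then 4 of the 10 genes rose and 3 fell, beside 16.7% and 49.2% of tested genes. IAPP, PCSK1, PAM and QPCT kept log2 changes of 0.84, 0.54, 0.25 and 0.39, while INS, PCSK2 and ERO1B had -0.34, -0.77 and -0.91. The size of each of these changes thus depends on the scaling.

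**Figure D2:**
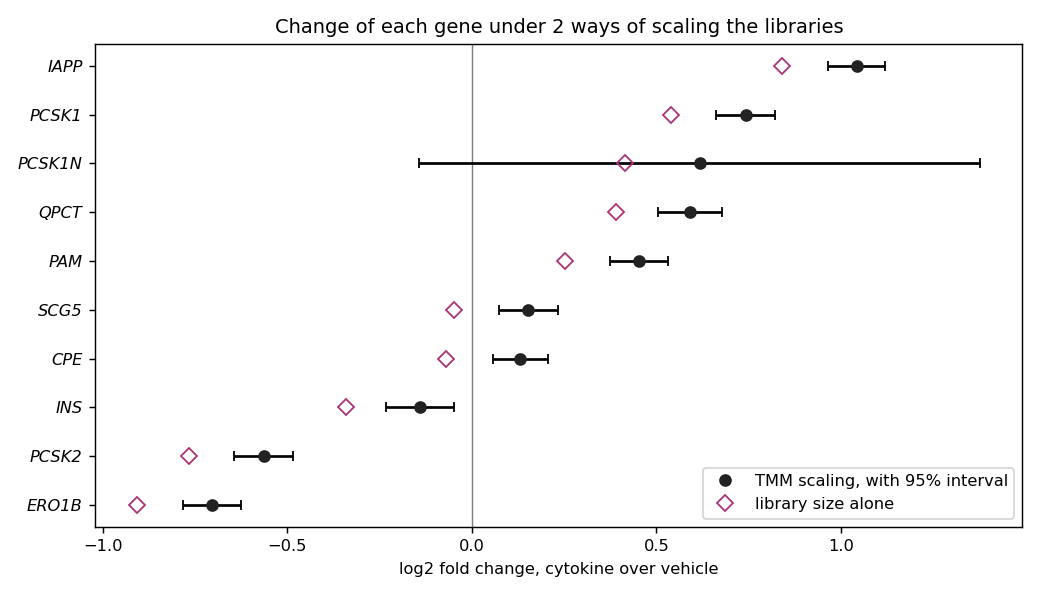
Log2 fold change of cytokine over vehicle for each of the 10 genes; filled circles with 95% intervals are from TMM scaling and open diamonds from library size alone. Every diamond lies to the left of its circle, and CPE and SCG5 cross 0.

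To compare one gene with another, counts were divided by the length of the merged exons of each gene and scaled to one fixed total per library, with INS counted together with INS-IGF2. On this scale the level of INS was 39532 ± 1312 in vehicle (SD, n = 3), and IAPP stood at 7111 ± 325. Below them came CPE, PCSK1N, SCG5, ERO1B, PCSK1, PCSK2, PAM and QPCT, from 2475 ± 22.0 down to 234 ± 3.55. Neighbours in this order were apart in every vehicle library except PCSK1N and SCG5, which overlapped. In cytokine libraries the order was INS, IAPP, CPE, PCSK1N, SCG5, PCSK1, ERO1B, PAM, QPCT and PCSK2, and only CPE and PCSK1N overlapped. PCSK1 thus passed ERO1B, and PCSK2 went from above PAM and QPCT to the lowest of the 10. The level of INS was 5.56 ± 0.104 times that of IAPP in vehicle and 2.46 ± 0.202 times in cytokine libraries (SD, n = 3). From the INS row alone it was 2.80 ± 0.0487 times in vehicle and 1.23 ± 0.103 times in cytokine libraries, a reading chosen after seeing the data, and INS still lay above IAPP in every library. These levels depend on the exon lengths of 776 bases for INS and 2167 for IAPP, which merge all annotated transcripts. They lack the composition term, so the level of one gene cannot be compared between groups as in CPM. CPE, for example, stood at 2475 in vehicle and 2355 in cytokine libraries on this scale, though it rose in CPM.

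**Figure D3:**
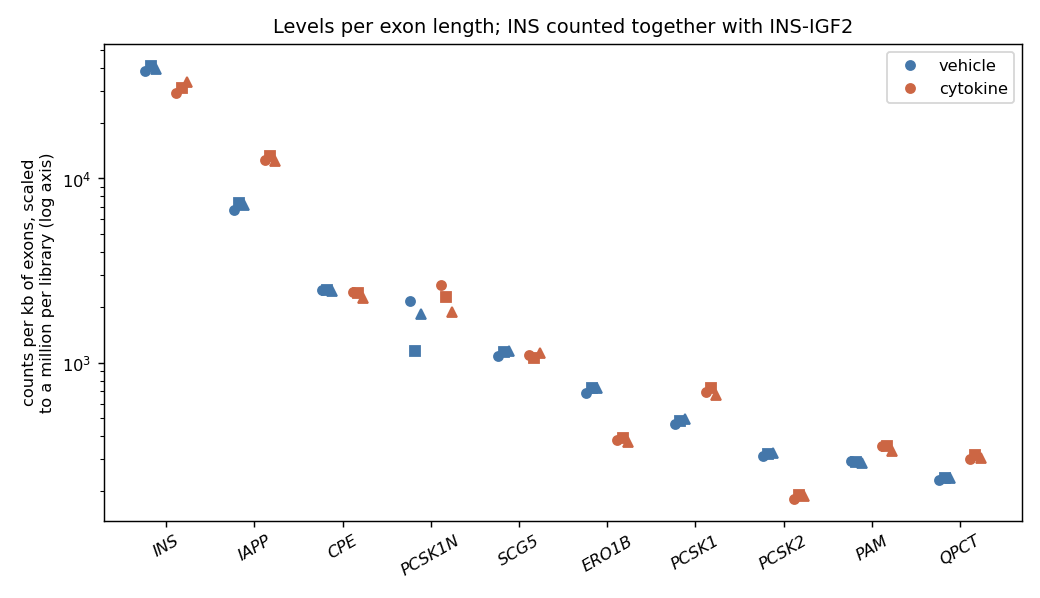
Counts per kb of merged exons, scaled to the same total in each library (log axis), for each gene in the order of its vehicle level; colours give the group and symbols the replicate number (circle, square and triangle for 1, 2 and 3). INS (counted with INS-IGF2) stays the highest of the 10, IAPP approaches it in cytokine libraries, and PCSK2 falls to the lowest level.

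Ratios of counts within a library do not depend on how libraries are scaled, and 7 were computed. They are built from the same counts as the changes above and are no independent evidence. The IAPP count was 0.978, 0.999 and 1.01 times the INS count in vehicle replicates 1, 2 and 3 and 2.40, 2.35 and 2.06 times in cytokine replicates 1, 2 and 3. The log2 difference was 1.19. With INS-IGF2 added to INS the IAPP count was 0.492, 0.505 and 0.510 times the sum in vehicle and 1.20, 1.18 and 1.04 times in cytokine libraries, so whether the vehicle counts were near equal depends on the reading, and the log2 difference was then 1.18. The PCSK1 count was 1.11, 1.14 and 1.15 times the PCSK2 count in vehicle and 2.87, 2.87 and 2.66 times in cytokine libraries, a log2 difference of 1.31.

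The PCSK2 count per SCG5 count went from 0.926, 0.900 and 0.898 to 0.536, 0.577 and 0.543, a log2 difference of -0.72. PAM per IAPP count differed by -0.59 on the log2 scale and ERO1B per INS count by -0.56, so both enzymes had fewer counts per hormone count in cytokine libraries. CPE per INS count differed by 0.27. In these 6 ratios the groups did not overlap, and each reached p = 0.1 in a two-sided exact permutation test, the floor for groups of 3 libraries, and 0.117 adjusted over the 7 ratios. PCSK1 per PCSK1N count overlapped between groups, with values of 0.838, 1.64 and 1.05 in vehicle and 1.03, 1.24 and 1.39 in cytokine libraries. Its log2 difference was 0.10 (exact permutation p = 0.8) and turned to -0.12 without vehicle replicate 1.

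**Figure D4:**
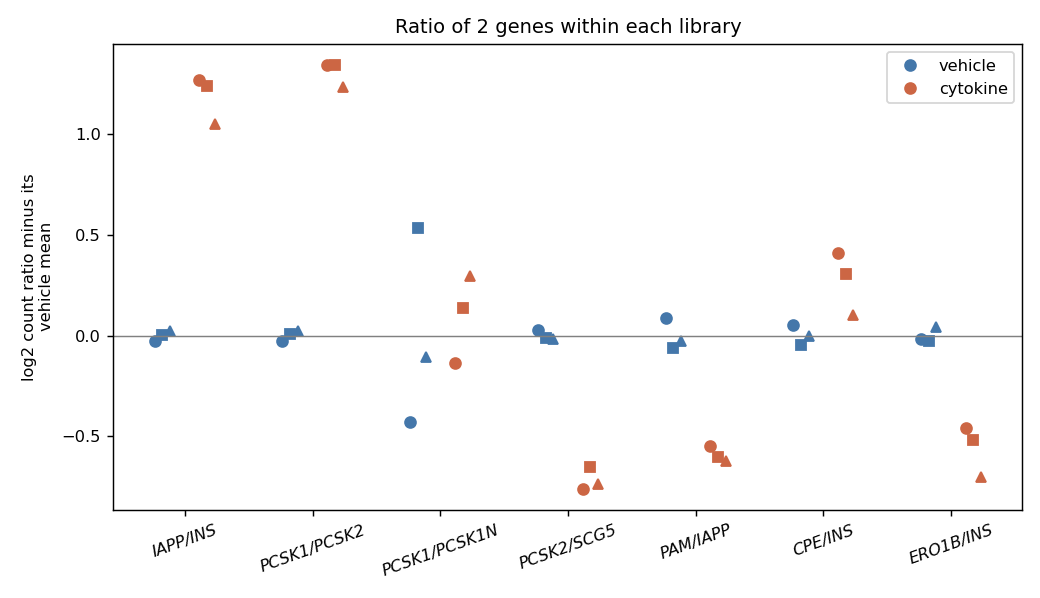
Log2 ratio of the counts of 2 genes in each library, shown as the difference from the vehicle mean of that ratio; colours give the group and symbols the replicate number (circle, square and triangle for 1, 2 and 3). In 6 ratios the cytokine libraries lie on one side of all vehicle libraries, and PCSK1/PCSK1N overlaps.

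Other proprotein convertases were given as a list of 7 genes, of which 6 were tested and 3 rose, where 28.3% of all tested genes rose. MBTPS1, which encodes a Golgi protease that activates membrane-bound transcription factors, went from 185 ± 4.37 to 323 ± 4.34 CPM, and PCSK7 from 64.1 ± 0.244 to 115 ± 1.86 CPM. FURIN, the convertase of the constitutive pathway, rose 1.30-fold to 125 ± 5.32 CPM and was chosen after its values were seen.

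Of 12 genes for other carboxypeptidases, the second glutaminyl cyclase and peptide trimming, 9 were tested, 2 rose and 2 fell. Among all tested genes 28.3% rose and 28.8% fell. IDE, the insulin-degrading enzyme, rose from 24.6 ± 1.26 to 33.8 ± 1.88 CPM and PREP from 30.6 ± 1.38 to 35.2 ± 0.857 CPM. MME, which encodes the cell-surface protease neprilysin, fell from 82.4 ± 2.77 to 36.5 ± 1.92 CPM, and the carboxypeptidase M gene fell 1.80-fold. QPCTL, the Golgi relative of QPCT and chosen after its values were seen, had 10.3 ± 1.09 and 10.8 ± 0.456 CPM (edgeR, adjusted p = 0.806). The number that rose was 1 without vehicle replicate 3 and 4 without cytokine replicate 3.

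ER entry and signal peptide removal, the step before folding, was covered by 24 genes. Of these 20 rose and 2 fell, beside 28.3% and 28.8% of all tested genes. The changes were small, with a median log2 change of 0.25, and the largest rises were those of SRPRB, a subunit of the signal recognition particle receptor, at 1.55-fold and SSR1, a translocon-associated subunit, at 1.43-fold. SRP9 and SEC11A fell by 0.13 and 0.17 on the log2 scale. Without the composition term 7 rose and 3 fell, beside 16.7% and 49.2% of tested genes. With that term, the number that fell was 1 without vehicle replicate 3 and 0 without cytokine replicate 1.

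Genes of ER disulphide formation and folding rose in 22 of 24 with a median log2 change of 0.68, and none fell, where ERO1B fell. Among all tested genes 28.3% rose and 28.8% fell. Dropping the composition term left 20 of the list that rose and 2 that fell, beside 16.7% and 49.2% of tested genes. PDIA6, a disulphide isomerase, went from 391 ± 16.9 to 1067 ± 8.32 CPM and QSOX1, a sulphydryl oxidase of the secretory pathway, from 99.8 ± 4.47 to 241 ± 3.86 CPM. The 2 that did not pass were CREB3L2 and ERO1A. ERO1A, the other ERO1 oxidase gene, chosen after its values were seen, had 76.7 ± 4.10 and 76.2 ± 1.91 CPM, with a log2 change of -0.023 (edgeR, adjusted p = 0.730).

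Granule acidification, which the convertases need, was covered by 20 genes of the proton pump and its partners, of which 14 rose and 4 fell. The shares over all tested genes were 28.3% and 28.8%. ATP6V0A1 rose 1.67-fold to 412 ± 5.54 CPM and ATP6V1B2 1.40-fold to 292 ± 4.37 CPM. ATP6V1G2 went from 7.67 ± 0.915 to 4.13 ± 0.359 CPM and the chloride transporter gene CLCN3 from 187 ± 7.57 to 153 ± 8.68 CPM. Dropping the composition term left 7 acidification genes that rose and 5 that fell, beside 16.7% and 49.2% of tested genes. In the 16 genes of granule sorting and budding 12 rose and 3 fell, and without the composition term 8 rose and 4 fell. VGF, a granule precursor that the same convertases cut, went from 60.3 ± 0.842 to 234 ± 14.0 CPM and GOLM1 from 135 ± 11.4 to 482 ± 7.15 CPM. SLC30A8, the zinc transporter gene of insulin granules, fell 2.15-fold from 518 ± 16.6 CPM, and ICA1 from 89.9 ± 1.25 to 76.7 ± 1.00 CPM.

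**Figure D5:**
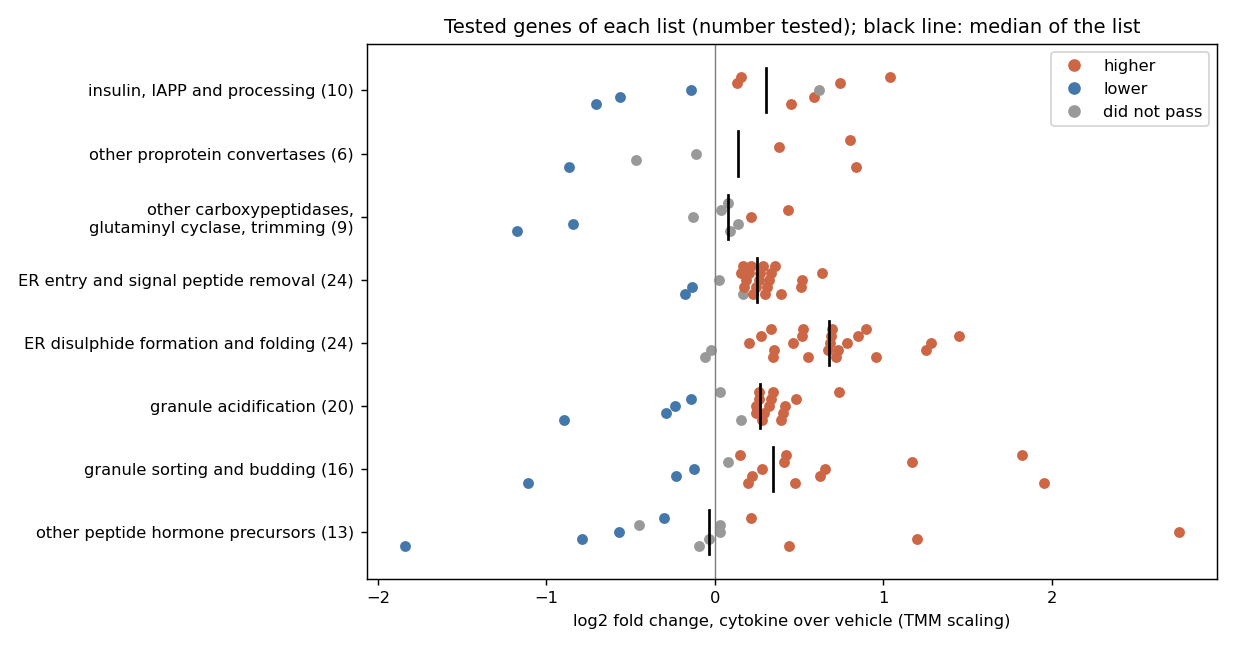
Log2 fold change (cytokine over vehicle, TMM scaling) of every tested gene of each list, 1 point per gene, with the number tested in brackets; red points rose, blue points fell and grey points did not pass, and black lines are medians. The ER folding list has the highest median, at 0.68, and no blue point, while ERO1B and PCSK2 are the 2 lowest points of the top row.

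Promoter sequences were read for INS and for the pair with the largest rise, IAPP and PCSK1. Each is the 250 bases before a RefSeq start site on GRCh38.p14, 5′ to 3′ on the strand of the gene, and of the 2 windows each that IAPP and PCSK1 have, the IAPP one nearer its coding exons and the PCSK1 one with 2 matches are shown. Capitals mark matches to the motifs named below: INS at chr11:2161210-2161459 (minus), IAPP at chr12:21372652-21372901 (plus) and PCSK1 at chr5:96433249-96433498 (minus).
INS promoter: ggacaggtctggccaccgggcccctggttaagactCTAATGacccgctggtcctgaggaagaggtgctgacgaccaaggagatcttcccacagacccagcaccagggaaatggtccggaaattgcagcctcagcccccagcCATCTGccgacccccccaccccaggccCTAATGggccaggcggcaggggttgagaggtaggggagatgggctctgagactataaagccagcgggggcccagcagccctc
IAPP promoter: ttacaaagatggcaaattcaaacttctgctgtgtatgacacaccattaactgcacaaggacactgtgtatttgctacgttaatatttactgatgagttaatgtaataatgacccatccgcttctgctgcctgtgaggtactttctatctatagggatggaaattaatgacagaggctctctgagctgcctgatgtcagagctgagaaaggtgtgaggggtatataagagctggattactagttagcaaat
PCSK1 promoter: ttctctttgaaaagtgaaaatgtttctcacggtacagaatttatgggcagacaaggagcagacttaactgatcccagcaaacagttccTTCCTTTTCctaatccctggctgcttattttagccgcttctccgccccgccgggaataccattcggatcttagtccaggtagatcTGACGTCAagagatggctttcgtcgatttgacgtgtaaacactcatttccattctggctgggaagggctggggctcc
The motifs were searched on both strands in windows of 300 bases that run 50 bases past the start. INS held 2 copies of CTAATG, an A-box letter run known from insulin-type promoters, and 1 of CATCTG, an E-box, which 6.49% and 14.7% of all 35116 promoter windows hold. PCSK1 held TGACGTCA, the cyclic AMP response element, found in 1.85% of windows, and TTCNNTTTC, the core of the interferon-stimulated response element, found in 8.11%. The IAPP window shown held none of the 6 motifs, and its other window held TTCNNNGAA, the gamma-activated sequence, found in 7.66%. The NF-kappaB consensus, found in 20.8% of windows, matched in the other PCSK1 window and in windows of PCSK2 and PAM. These matches describe letters in a window and no binding was measured. All 10 genes had at least 1 window.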

How the data were processed

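RNA was measured in 6 libraries, 3 per group, grouped by sample title. The authors deposited an estimated count per gene and library, not normalised, of which 67.3% to 73.5% of values above 0 lay within 0.005 of a whole number, per the file headers and values. The submitters' processing notes list STAR 2.7.5a, HTSeq 0.12.4 and cutadapt 2.10 beside MultiQC 1.9, FastQC 0.11.9, Picard 2.23.2 and GRCh38, and say nothing of what each did. How reads shared by genes were treated, with which strand setting and which annotation, is not given in the sources used here. Libraries came from a directional kit (NEBNext Ultra II), per the labels' protocols. Columns named NT were taken as vehicle, since the other 3 carry the cytokine name and the numbers match the titles. The authors deposited a log2 fold change and a p-value with its FDR per gene, used here for PCSK1N only.

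Counts were rounded, filtered with filterByExpr (17847 genes kept), scaled with TMM and tested with edgeR 4.0.16 (R 4.3.3), with robust quasi-likelihood dispersion and group as the sole term, and the script was checked on simulated data. SE was obtained as the size of the log2 change over the root of the F statistic. Total counts of 5871481 to 16175364 leave levels near 1 CPM imprecise. Positions and exon lengths came from GENCODE 29 on GRCh38. Ratios used a pseudocount of 0.5. The 10 genes, 7 pathway lists, 4 marker lists, ratios and motifs were chosen with earlier results of these data known. The rule named, from each pathway list, the 2 strongest rises and 2 strongest falls among called genes that reach 1 CPM in the higher group. Alternatives were DESeq2 size factors, library size alone, DESeq2 1.42.0, no count filter, at least 1 CPM in 3 libraries, a replicate block, each library left out, an adjusted p of 0.01, other pseudocounts, INS summed with INS-IGF2 and, added after seeing the data, INS per kb from its row alone. A result on 1 list gene is not reported here.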

Additional observations from a re-analysis of the deposited data

How the results depend on the processing

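IAPP, PCSK1, PCSK2, PAM, QPCT and ERO1B kept their direction and call in all 13 alternatives, PCSK1N stayed outside the threshold in all 13 (adjusted p from 0.0532 to 0.299), and 4 to 6 of the 10 genes rose and 2 to 3 fell. INS had a log2 change of -0.12 with DESeq2 (adjusted p = 0.235), INS-IGF2 -0.11 (0.247) and both together -0.12 (0.241), and these were no longer called. The INS-IGF2 change of -0.13 also missed an adjusted p of 0.01. Leaving out 1 library at a time gave -0.19 to -0.076 for INS, -0.18 to -0.069 for INS-IGF2, -0.18 to -0.073 for both together and -0.12 to 0.37 for the PCSK1/PCSK1N ratio. Scaling by library size alone reversed CPE (-0.071) and SCG5 (-0.049), because it moves every gene by nearly the same amount in one direction. It also moved counts in the lists: 2 of 6 tested other convertases fell, and of 9 tested peptide trimming genes 1 rose and 5 fell. In the other lists 7 ER entry genes rose, 2 ER folding genes fell and 7 acidification genes rose. Under library size alone 16.7% of all tested genes rose and 49.2% fell. Leaving out libraries gave 1 to 4 peptide trimming genes that rose and 0 to 2 ER entry genes that fell, and DESeq2 gave 1 ER entry gene that fell, where the cause was not tested. Whether the replicate number shared by both groups pairs the libraries is not known. Deviations of same-numbered libraries correlated by 0.014, -0.045 and -0.048 over all tested genes, which cannot exclude a shared batch in part of them. With the replicate block INS had a log2 change of -0.14 and IAPP of 1.04. The block changed no call among the 10 genes. From the INS row alone, a choice made after seeing the data, INS per kb was 2.80 times IAPP in vehicle and 1.23 times in cytokine libraries. Levels near 1 CPM, among them most untested hormone precursors, rest on few counts.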

Other observations

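Other peptide hormone precursors, many of them substrates of the same enzymes, changed in both directions, in shares near those of all tested genes. Of 33 such genes 13 were tested, of which 4 rose, 4 fell and 5 did not pass, beside 28.3% and 28.8% of all tested genes. The untested precursors had counts of at most 19 in any library. ADM, whose peptide adrenomedullin is amidated, went from 0.958 ± 0.144 to 6.38 ± 0.568 CPM (SD, n = 3), and UCN from 2.30 ± 0.432 to 5.38 ± 1.18 CPM. NPPC, a natriuretic peptide precursor, fell from 9.22 ± 1.04 to 2.54 ± 0.182 CPM and GCG, the glucagon precursor, from 44.5 ± 1.46 to 25.7 ± 1.05 CPM. SST, the precursor of somatostatin, was chosen after its values were seen and had 555 ± 34.5 and 568 ± 20.6 CPM (edgeR, adjusted p = 0.538).

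Genes closest in profile to each hormone were ranked over the 6 libraries by the root mean square difference of centred log2 CPM. They were drawn from 5006 genes with at least 50 CPM, less INS-IGF2 and the hormone and processing genes followed above. INS-IGF2, the near-equal twin of INS, was thus not ranked. Among the genes ranked, the nearest to INS were MCRIP1, NDUFC2 and ILVBL, with differences of 0.015, 0.018 and 0.031. Nearest to IAPP were FNDC3B, PPA1 and SSTR2, with differences of 0.026 for each. SSTR2, a somatostatin receptor gene, went from 82.5 ± 3.60 to 165 ± 3.00 CPM and PPA1, an inorganic pyrophosphatase gene, from 90.0 ± 4.34 to 185 ± 1.51 CPM.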
